A study of Rattus norvegicus with 6 samples.

Results

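The genes described here are transcription factors of developmental and lineage-determining families, measured in primary cultures of rat dorsal root ganglion with and without lidocaine. They were taken from the normalized expression table by symbol alone: the Sox, Hox, Fox, Klf, Tbx, Pax, Lhx, Nkx, Hmx, Pou, Gata, Irx, sine oculis homeobox, Zic, Meis, Ebf, Runx, Etv, Tfap2, Hes, Hey, Bhlh, Id, Nfi, Cebp, Spi, Mef2, Twist and Snai families, without Sox11. This gave 42 of the 2125 listed genes. The prefixes also caught Tbxas1, thromboxane synthase, and Foxred2, an oxidoreductase of the endoplasmic reticulum, which are not transcription factors, so 40 members are transcription factors.

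The cultures were prepared as single cell suspensions from all spinal ganglia of Sprague Dawley rats weighing 120 g and kept in supplemented Neurobasal medium. The 3 control libraries came from cultures without treatment. The 3 lidocaine libraries came from cultures exposed to 5 mM lidocaine hydrochloride, an anaesthetic acting on sodium channels of the cell membrane, for 24 hours. No genetic change is named for either group, and the labels leave unsaid whether each replicate had its own animals or culture. The p-values therefore rest on the spread of these libraries, part of which may be technical. The table lists genes that the authors called significant: the smallest absolute log2 fold change in the authors' deposited table was 1.00, and the largest p-value 0.0499. A gene outside the table was not analysed here, and a call on a listed gene repeats a selection already made on the same libraries.

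Although the labels name the cells as neurons, markers of other ganglion cells were plentiful in control. The Schwann cell markers listed (10 of 18) summed to between 127968 and 133706 normalized reads in the control libraries, and the fibroblast markers listed (11 of 18) to between 158863 and 174611. Of 27 sensory neuron markers only Elavl2 and Elavl4, which encode neuronal RNA-binding proteins, were listed, so the neuronal label could not be checked further. The listed genes held 2453051 to 3592141 whole reads per library, a number that is not the depth of the library. In bulk libraries, fewer cells of a type and less RNA per cell cannot be told apart.

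Transcription factors of these families bind DNA through conserved domains. Among these are the homeodomain, the HMG box of Sox factors, the forkhead, the basic helix-loop-helix and the zinc finger. Many of the factors set or hold the identity of a cell type. In the ganglion, neurons and glia descend from neural crest, whose cells use Sox, Tfap2 and Snai factors. Endothelial cells use Sox factors of another subgroup, and mural cells, the smooth muscle cells and pericytes around vessels, use Notch-responsive Hes and Hey repressors. Other members, among them Klf4, Cebpb, Bhlhe40 and the Etv factors, are induced within hours by growth factor, stress or cytokine signals in many cell types.

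Most of the members were higher with lidocaine, in a table where most genes were lower. Of the 42 members, 27 (64.3%) were higher and 15 were lower. Over every listed gene, 30.2% were higher and 69.8% were lower. Among the 2083 other genes, 615 (29.5%) were higher. The members thus held the opposite split to the genes around them, as the distribution of log2 fold changes shows.

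**Figure D1:**
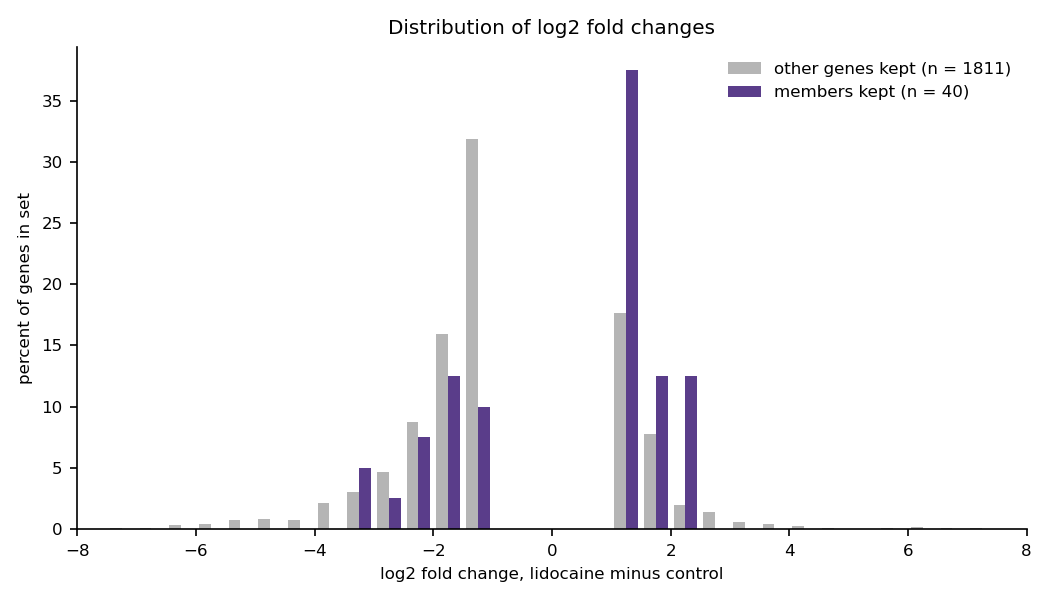
Percent of genes (vertical axis) by log2 fold change, lidocaine minus control, in steps of 0.5 (horizontal axis), for the 40 members and the 1811 other genes that passed the filter. The tallest bar of the members lies just above 1 and that of the other genes just below -1; the gap around 0 comes from the authors' selection.

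Where the 6 libraries averaged 10 normalized reads or more, genes were tested with limma on the deposited log2 values. This left 1851 genes, and Benjamini-Hochberg adjustment of the two-sided p-values called 99.5% of them at a threshold of 0.05. All 40 members that passed this filter were called, 25 of them higher and 15 lower (background 30.9% higher and 68.6% lower); calling as such sets no member apart from its background, and counts of lower genes in the lists that follow stand against this 68.6%. The median log2 fold change was 1.16 over the 40 members and -1.25 over all genes kept. In absolute size the medians were 1.53 and 1.51. The control and lidocaine libraries did not overlap in 39 of the 40 members, against 98.4% of all genes kept; the exception was Snai3. With 3 libraries a side, no exact permutation p can be lower than 0.1. Rescaling by the median of ratios over the listed genes raised all log2 fold changes by a median of 1.17, since it centres a table in which most genes were lower. Under it 25 members were higher and 9 lower (73.5% higher), against 592 higher and 550 lower (51.8% higher) over all genes.

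Other genes with a transcription factor annotation were mostly lower. By the molecular function annotation in the deposited table, 112 genes that are not members carried the term for sequence-specific DNA binding transcription factor activity, which is used there broadly and takes in secreted proteins such as Vegfa. Of these 33 (29.5%) were higher. Of the 31 members with the same term, 18 (58.1%) were higher. The difference between these shares was not tested.

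**Figure D2:**
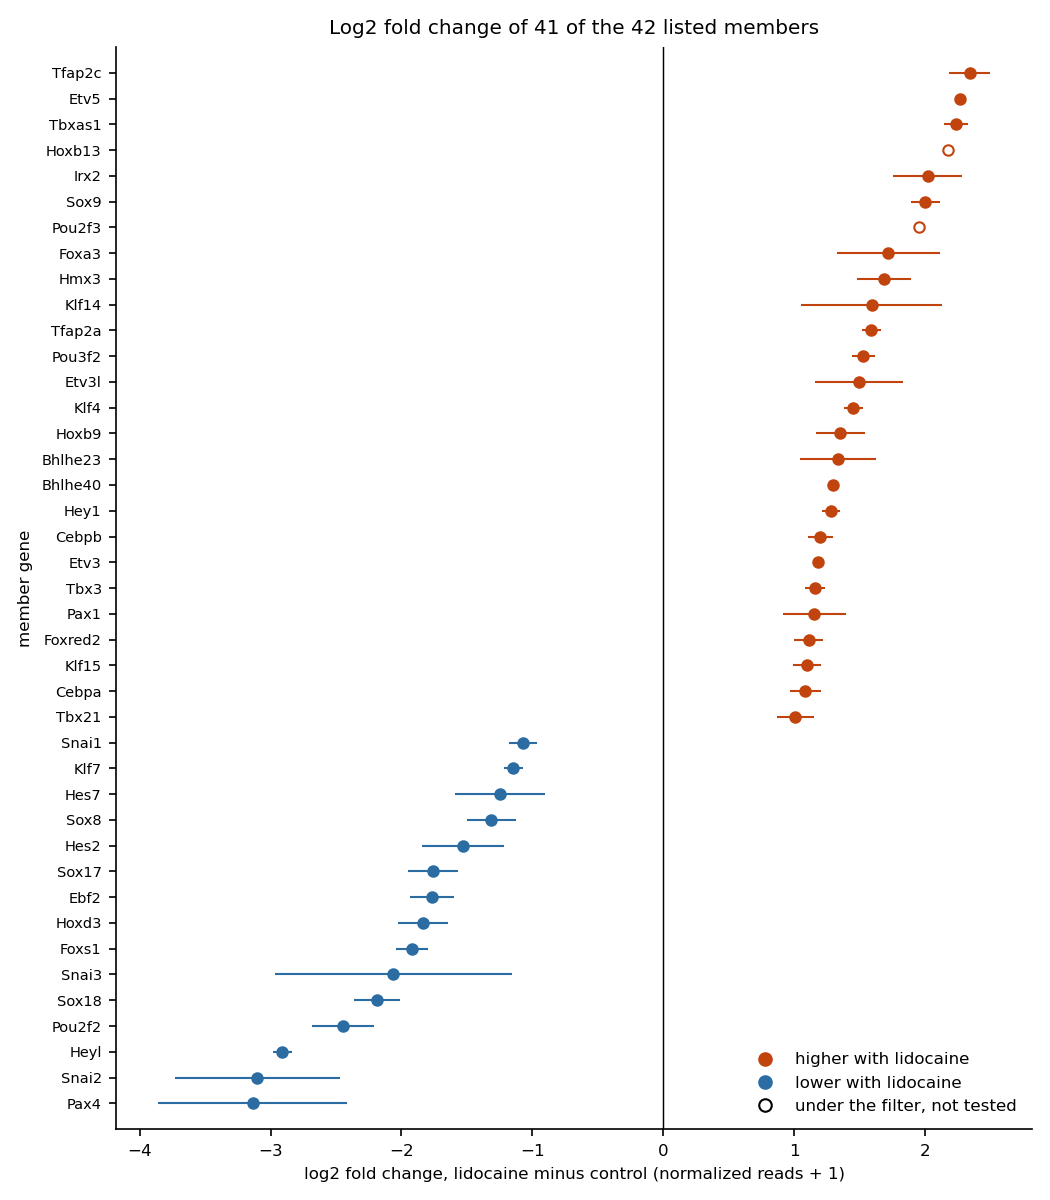
Log2 fold change of 41 of the 42 members (horizontal axis, lidocaine minus control, on the scale of normalized reads plus 1), with the standard error from limma (n = 3 per group) as a bar. The 2 open circles, Hoxb13 and Pou2f3, had too few reads to be tested. Values run from -3.14 for Pax4 to 2.34 for Tfap2c, and the widest bars belong to genes with few reads.

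Among families with 2 or more listed members, every listed member was higher in Etv (3), Tfap2 (2), Cebp (2), Bhlh (2) and Tbx (3, with Tbxas1). Every listed member was lower in Snai (3) and Hes (2), and in Sox 3 of 4 were lower. Of the families with 1 listed member, Hmx and Irx were higher and Ebf was lower. All 3 Snai genes of the RefSeq gene table were listed, against 4 of 40 Hox and 3 of 48 Fox symbols. No member of the Gata, Id, Lhx, Mef2, Meis, Nfi, Nkx, Runx, sine oculis homeobox, Spi, Twist or Zic families was listed. Under the median of ratios Snai1 was at 0.11 without a call, and the calls of Snai3, Hes2 and Hes7 were lost.

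The Etv genes encode ETS-domain factors. Etv5 is a transcriptional effector of receptor tyrosine kinase and ERK signalling, best known downstream of FGF and GDNF. It was at 2588, 2621 and 2546 normalized reads in the control libraries and at 12564, 12119 and 12656 in the lidocaine libraries. Every lidocaine library thus stood far above every control library, and the spread within each group was small beside the gap. The means differed 4.81-fold, and the log2 change was 2.27 ± 0.04 (SE over 3 and 3 libraries; limma with Benjamini-Hochberg adjustment, adjusted p = 5.33e-11), the smallest adjusted p among the members.

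Etv3, an ETS repressor, was at 3289, 3322 and 3229 normalized reads in control and at 7448, 7383 and 7453 with lidocaine. This 2.26-fold rise (log2 fold change 1.18 ± 0.04, SE over 3 and 3 libraries; limma adjusted p = 2.12e-09) came with groups that lay far apart. Etv3l, its neighbour in the RefSeq gene table, rose from 18.3 ± 6.89 normalized reads to 52.2 ± 13.1 (SD, n = 3 each). Both Etv3 and its neighbour rose, while Etv5 changed most.

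The genes listed beside the Etv factors as ERK feedback and growth factor genes moved the same way with 1 exception. Of 19 genes in that list the table held 6, with 5 higher and 1 lower (median 1.59 on the log2 scale, against -1.25 over all genes kept). Spry2, an inhibitor of receptor tyrosine kinase signalling, rose from 1820 ± 147 normalized reads to 5288 ± 73.9 (SD, n = 3 each). Dusp4, a phosphatase of MAP kinases, rose 3.00-fold and Fosl1, a Fos-family factor, 3.02-fold. The growth factor receptor Fgfr3 was the gene that fell, 2.33-fold, a call that was lost under the median of ratios while the 5 rises were kept. The list was chosen with earlier results of these data known, and its genes outside the table were not analysed. It was described by counts only and was not tested as a set, so a shared response with the Etv factors was not tested.

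**Figure D3:**
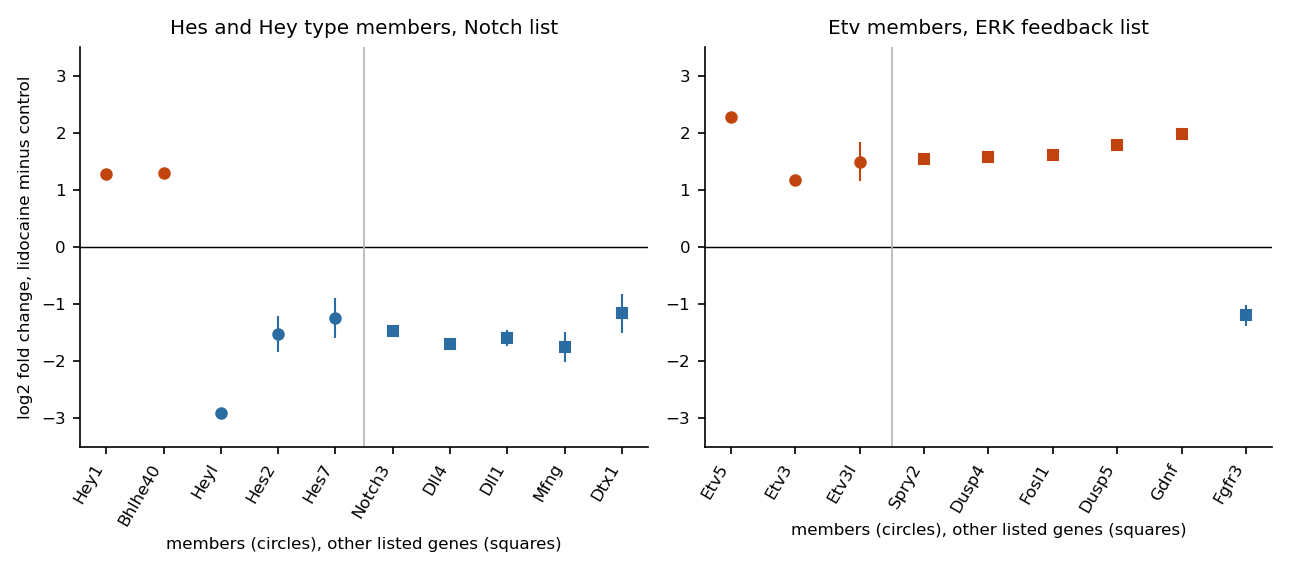
Log2 fold change with its standard error (limma, n = 3 per group) for Hes, Hey and Bhlhe40 members beside the listed genes of the Notch list (left panel), and for Etv members beside the listed genes of the ERK feedback list (right panel). Circles are members and squares other genes. On the left all 5 squares lie below 0 while Hey1 and Bhlhe40 lie above it; on the right all points but Fgfr3 lie above 0. Under the median of ratios the calls of Hes2 and Hes7 were lost.

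The Tfap2 genes encode AP-2 factors, which act in neural crest and epidermis. Tfap2c was at 53.2, 42.6 and 43.1 normalized reads in control and at 245, 244 and 223 with lidocaine, a 5.12-fold difference and the highest log2 fold change among the members tested (2.34 ± 0.16, SE over 3 and 3 libraries; limma adjusted p = 3.01e-07). Tfap2a, an early factor of neural crest, was at 596, 605 and 531 normalized reads in control and at 1798, 1747 and 1664 with lidocaine. For both genes the lowest lidocaine library exceeded the highest control library by a wide margin. The 3.01-fold rise of Tfap2a had a log2 fold change of 1.59 ± 0.07 (SE over 3 and 3 libraries; limma adjusted p = 1.56e-08).

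Of 19 factors of Schwann cells and neural crest 6 were listed, 4 higher (Etv5, Tfap2a, Pou3f2 and Sox9) and 2 lower (Sox8 and Snai2), with a median log2 fold change of 1.56. Sox9, a SoxE factor of neural crest, cartilage and glial progenitors, was at 199, 160 and 196 normalized reads in control and at 774, 757 and 688 with lidocaine. Sox8, a SoxE factor of the same subgroup, was at 478, 419 and 540.3 normalized reads in control and at 258, 182 and 148 with lidocaine. This pair of related genes moved in opposite directions, with log2 fold changes of 2.00 ± 0.11 for Sox9 and -1.31 ± 0.19 for Sox8 (SE over 3 and 3 libraries; limma adjusted p = 5.81e-08 and 9.2e-05), although the call of Sox8 was lost under the median of ratios (-0.13). Pou3f2, a POU factor that with its paralog Pou3f1 drives the promyelinating stage of Schwann cells, was at 247, 284 and 273 normalized reads in control and at 818, 769 and 733 with lidocaine. Its groups lay well apart, with a 2.89-fold rise (log2 fold change 1.53 ± 0.09, SE over 3 and 3 libraries; limma adjusted p = 9.36e-08).

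The Schwann cell markers did not follow these rises. All 10 listed of 18 markers fell, and their summed level went from between 127968 and 133706 to between 36388 and 39556 normalized reads; Scn7a, Cnp and Mbp were the most abundant, and no listed marker was at 0 in any library. Of the 10, 7 were still called lower under the median of ratios, and Cnp, Egr2 and Mag were not. Of 19 partners and targets of Sox10 in Schwann cells 9 were listed, 2 higher and 7 lower (median -1.68). Cnp, an enzyme of myelinating cells, fell 2.43-fold and Mbp, a major myelin protein, 3.73-fold. Nab2, a corepressor that binds the Egr factors, rose 2.07-fold, and Egr2, the factor that switches on myelin genes, fell 2.70-fold. The median of ratios called 2 of the 9 higher and 3 lower. The part of cell composition in the opposite movement of these factors and markers was not tested.

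The Snai genes encode zinc finger repressors of epithelial genes, best known in neural crest and mesenchyme. Snai1 was at 827, 819 and 985 normalized reads in control and at 367, 427 and 456 with lidocaine, a 2.11-fold fall (log2 fold change -1.07 ± 0.11, SE over 3 and 3 libraries; limma adjusted p = 5.8e-06) that gave way to a value of 0.11, not called, under the median of ratios. Snai2 was at 20.9, 16.6 and 24.1 normalized reads in control and at 0, 2.81 and 3.01 with lidocaine. Snai3 was at 22.7, 13.0 and 30.1 in control and at 0, 13.1 and 9.03 with lidocaine, so its groups overlapped. Snai2 fell (adjusted p = 0.000991, limma) with few reads behind it, while the call of Snai3 was borderline (adjusted p = 0.0482, limma). It was lost without lidocaine replicate 1, where the log2 fold change went from -2.06 to -0.87 (limma adjusted p = 0.0941), and without any 1 of the control libraries (adjusted p 0.0603 to 0.146).

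The Hes, Hey and Bhlhe40 genes encode basic helix-loop-helix repressors, and Hes and Hey genes are the classic direct targets of Notch signalling. Heyl, a Hey factor of vascular smooth muscle and pericytes, was at 2645, 2665 and 2890.1 normalized reads in control and at 338, 360.2 and 391 with lidocaine. This 7.53-fold fall was the largest among members with over 100 normalized reads in control (log2 fold change -2.91 ± 0.07, SE over 3 and 3 libraries; limma adjusted p = 4.28e-10), and no library came near the other group.

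Hey1, a Hey factor of arterial endothelium and of neural progenitors, went the other way. It was at 670, 704 and 653 normalized reads in control and at 1734, 1674 and 1526 with lidocaine, a 2.43-fold rise (log2 fold change 1.28 ± 0.07, SE over 3 and 3 libraries; limma adjusted p = 5.48e-08). The related repressors Hes2 and Hes7, the latter known from the segmentation clock of somites, had means of 48.1 and 44.5 normalized reads in control and 15.7 and 18.6 with lidocaine. Both fell (limma adjusted p = 0.00103 and 0.00584) at levels where each library held at most 64.2 normalized reads, and both calls were lost under the median of ratios.

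Of 20 Notch pathway genes 5 were in the table, and each of the 5 fell (median -1.60 on the log2 scale) against -1.25 over all genes kept. Notch3, the Notch receptor of mural cells, fell from 1597 ± 138 normalized reads to 569 ± 18.8 (SD, n = 3 each). Dll4, a Notch ligand of endothelium, fell 3.29-fold and Dll1, another ligand, 3.05-fold. Under the median of ratios 3 of the 5 were called lower, Notch3 among them (-0.30), and none higher. The Hes and Hey list had 5 of 11 genes listed, with Hey1 and Bhlhe40 higher and 3 genes lower. On the deposited scale Hey1 was therefore the listed Hes or Hey gene that did not fall with these ligands and the receptor. Under the median of ratios Heyl was still called lower (-1.73), while Hes2 (-0.39) and Hes7 (-0.11) were not called.

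Bhlhe40, a repressor of the circadian clock that is induced by hypoxia and many other stimuli, had the highest mean FPKM, a level per transcript length, of the members in both groups, although Klf7 was within its spread of it in control. It was at 5106, 4944 and 4936 normalized reads in control and at 12247, 11939 and 12589 with lidocaine. No control library came near any lidocaine library, and the fold of the means was 2.45 (log2 fold change 1.29 ± 0.04, SE over 3 and 3 libraries; limma adjusted p = 1.28e-09). Bhlhe23, a neural basic helix-loop-helix factor, rose from 21.1 ± 3.94 normalized reads to 55.1 ± 13.1 (SD, n = 3 each).

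Proteins of the Bhlhe40 type bind the E-box CACGTG, and this motif was searched on both strands of the RefSeq promoter windows (build GRCr8; 250 bases before to 50 after the gene start), which 26 of the 42 members had. It was present in 4 of these 26 (15.4%), against 6.4% of 33469 windows. The 4 were Bhlhe40 itself, Klf15, Foxred2 and Hoxd3. The windows of Bhlhe40 (chr4:143174200-143174499, plus strand), Klf15 (chr4:124522765-124523064, plus strand) and Hoxd3 (chr3:80045876-80046175, plus strand) are shown because a pair of these genes rose and Hoxd3 fell; capitals mark the E-box.
Bhlhe40: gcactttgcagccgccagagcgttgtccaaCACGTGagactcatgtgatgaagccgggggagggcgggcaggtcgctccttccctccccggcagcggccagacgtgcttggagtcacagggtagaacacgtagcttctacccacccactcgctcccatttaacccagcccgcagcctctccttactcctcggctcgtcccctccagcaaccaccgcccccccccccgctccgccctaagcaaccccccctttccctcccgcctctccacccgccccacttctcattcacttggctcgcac
Klf15: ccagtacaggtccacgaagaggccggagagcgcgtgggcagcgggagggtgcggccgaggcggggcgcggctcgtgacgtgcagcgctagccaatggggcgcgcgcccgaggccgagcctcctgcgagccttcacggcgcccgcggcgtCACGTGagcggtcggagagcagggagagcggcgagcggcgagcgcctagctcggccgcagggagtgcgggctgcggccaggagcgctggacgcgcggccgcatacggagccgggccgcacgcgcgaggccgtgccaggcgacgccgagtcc
Hoxd3: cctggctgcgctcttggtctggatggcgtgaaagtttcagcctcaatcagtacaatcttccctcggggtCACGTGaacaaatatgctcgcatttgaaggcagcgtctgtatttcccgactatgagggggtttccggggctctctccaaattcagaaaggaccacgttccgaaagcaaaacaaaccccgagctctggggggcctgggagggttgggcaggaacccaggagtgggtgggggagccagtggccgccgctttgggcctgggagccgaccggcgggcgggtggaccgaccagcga
A match is a stretch of letters and not a shown binding site. The E-box was thus found beside genes that moved in both directions.

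The other motifs searched on both strands of the same windows gave shares on either side of the background. GGGNGGGGC, a GC box of the kind bound by Klf and Sp proteins, was in 6 of 26 member windows (23.1%) and in 14.9% of all windows. TGGGAA, the core bound by the Notch effector Rbpj, was in 5 (19.2%) and in 25.7%. TGANTCA, bound by AP-1, was in 1 (3.8%) and in 7.3%, and ATTGTT, a Sox motif, in 1 (3.8%) and in 11.7%. TGATGNAA of ATF4 type, the cyclic AMP element TGACGTCA and the Spi1 type ETS site GAGGAAGT were in 0 of the 26, and in 4.0%, 1.8% and 2.4% of all windows. Member windows were richer in G and C, with a median of 62.7% against 51.7% of all windows. Etv5, the member with the strongest call, held 1 match to TGGGAA, in capitals in its window (chr11:92113013-92113312, plus strand).
Etv5: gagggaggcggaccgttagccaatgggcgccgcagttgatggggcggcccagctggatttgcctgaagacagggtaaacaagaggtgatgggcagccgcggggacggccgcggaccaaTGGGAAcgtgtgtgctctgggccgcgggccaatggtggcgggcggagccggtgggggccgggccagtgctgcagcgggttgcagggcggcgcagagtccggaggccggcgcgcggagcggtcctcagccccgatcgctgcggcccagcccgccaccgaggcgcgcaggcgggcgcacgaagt

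**Figure D4:**
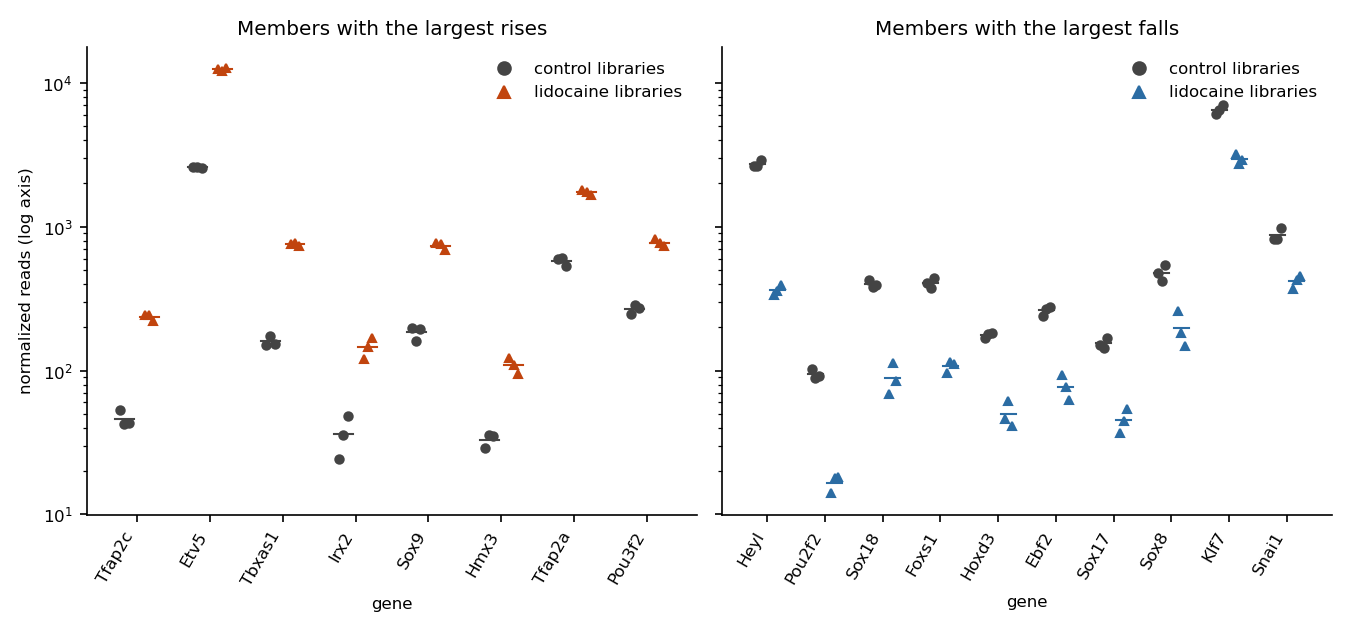
Normalized reads in each library (vertical log axis) for the 8 members with the largest rises and the 10 with the largest falls among members whose higher group averaged 50 normalized reads or more. Circles are control libraries, triangles lidocaine libraries and lines group means. The groups do not overlap for any gene drawn; under the median of ratios Klf7 and Snai1 were slightly above 0 and not called.

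The listed endothelial Sox factors fell together with the listed vascular markers. Sox18, a SoxF factor of blood and lymphatic endothelium, was at 424, 382 and 392 normalized reads in control and at 69.0, 113 and 84.3 with lidocaine. Sox17, the SoxF factor of arterial endothelium, was at 152, 144 and 167 in control and at 37.0, 44.9 and 54.2 with lidocaine. In both genes every lidocaine library lay below every control library, with a 4.50-fold fall of Sox18 (log2 fold change -2.18 ± 0.17, SE over 3 and 3 libraries; limma adjusted p = 1.11e-06) and a 3.41-fold fall of Sox17 (-1.76 ± 0.19; limma adjusted p = 1.17e-05). Of 18 endothelial and mural markers 14 were in the table, and each of the 14 fell (median -1.90 on the log2 scale). Their summed level went from between 19345 and 20372 normalized reads to between 5566 and 6009, with Pdgfrb, Abcc9 and Cdh5 the most abundant in both groups together, and Acta2 was at 0 in at least 1 lidocaine library. With the median of ratios 11 of the 14 were called lower; Pdgfrb was not called (0.13). The part of vascular cell content in the fall of these factors was not tested.

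The other listed factors of the endothelial list rose. Klf4, a zinc finger factor of shear stress responses in endothelium that is also induced in many stressed cells, was at 409, 440.4 and 411 normalized reads in control and at 1101, 1198 and 1151 with lidocaine. Tbx3, a T-box repressor of limb, heart and mammary development, was at 338, 358 and 356 in control and at 764, 806 and 779.7 with lidocaine. Both lay clearly above control in every lidocaine library, with folds of 2.74 (limma adjusted p = 2.63e-08) and 2.23 (limma adjusted p = 1.8e-07). With Hey1, this made 3 of the 5 listed genes of the 18 endothelial factors higher and 2 lower.

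Foxs1, a forkhead factor found in pericytes and in early sensory neurons, was at 409, 374 and 440.1 normalized reads in control and at 96.0, 114 and 110.4 with lidocaine, a 3.82-fold fall (log2 fold change -1.92 ± 0.12, SE over 3 and 3 libraries; limma adjusted p = 1.82e-07). Of the 25 fibroblast, mural and mesenchymal factors 8 were listed, 4 higher (Sox9, Tbx3, Pax1 and Klf15) and 4 lower (Heyl, Foxs1, Snai1 and Snai2), with a median of 0.01. Pax1, a paired box factor of the sclerotome, rose from 54.5 ± 4.55 normalized reads to 126 ± 43.0 (SD, n = 3 each), and its lidocaine libraries ranged from 98.3 to 176. The fibroblast markers, led by Col1a1, Col3a1 and Fbn1, fell in all 11 listed genes, to a summed level of between 44909 and 47089 normalized reads, and none was at 0. The median of ratios still gave 10 of the 11 as lower. Whether fibroblast content moved these factors was not tested.

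Of 20 factors of sensory neurons 3 were listed and all 3 fell (Klf7, Foxs1 and Ebf2), with a median of -1.77, in a table where 69.8% of the genes were lower. A count of 3 lower genes is near that background, and under the median of ratios Klf7 was at 0.04 and not called. Klf7, a Klf factor that maintains the nerve growth factor receptor TrkA in nociceptive neurons and favours axon growth, was at 6078, 6498 and 6978 normalized reads in control and at 3213, 2727 and 2905 with lidocaine. Per transcript length it had rank 2 among the members in control, and its 2.21-fold fall (log2 fold change -1.15 ± 0.07, SE over 3 and 3 libraries; limma adjusted p = 1.46e-07) left no overlap. Ebf2, a helix-loop-helix factor of neurons, adipocytes and mesenchyme, was at 241, 269 and 279 in control and at 93.0, 76.7 and 62.2 with lidocaine, a 3.40-fold fall (limma adjusted p = 4.36e-06). Both listed neuronal markers fell as well, Elavl2 2.63-fold and Elavl4 2.00-fold, and their summed level went from between 8264 and 9017 to between 3246 and 3877 normalized reads. Under the median of ratios Elavl2 was lower (-0.21) and Elavl4 higher (0.18).

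The listed Klf genes other than Klf7 rose, while only 4 of the 18 Klf symbols of the RefSeq gene table were listed. Klf15, a glucocorticoid-responsive metabolic factor, was at 186, 179 and 155 normalized reads in control and at 376, 383 and 354 with lidocaine, so that the groups were clearly apart (2.14-fold; limma adjusted p = 5.9e-06). Klf14, a metabolic regulator of adipose tissue, was at 9.59, 3.55 and 10 in control and at 13.0, 42.1 and 23.1 with lidocaine. Its control mean of 7.72 lay under the filter of 10 normalized reads, which it passed only through the lidocaine libraries. The call of Klf14 (limma adjusted p = 0.0164) was lost without control replicate 2 (log2 fold change 1.18 in place of 1.59; limma adjusted p = 0.0569) and without lidocaine replicate 2 (1.18; limma adjusted p = 0.0701).

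Both listed Cebp factors, 2 of the 7 Cebp symbols of the RefSeq gene table, rose while the listed macrophage markers fell. Cebpb, a leucine zipper factor of inflammatory and stress responses, was at 585, 529 and 695 normalized reads in control and at 1319, 1386 and 1427 with lidocaine. Cebpa, which specifies granulocytes and macrophages and acts in liver and fat, was at 169, 185 and 169 in control and at 322, 402 and 392 with lidocaine. Neither gene overlapped between groups, and the folds were 2.28 (log2 fold change 1.20 ± 0.10, SE over 3 and 3 libraries; limma adjusted p = 1.25e-06) and 2.13 (1.08 ± 0.12; limma adjusted p = 1.19e-05). The immune marker list, mostly macrophage genes, had 17 of 20 genes in the table, and each of the 17 fell (median -2.89 on the log2 scale). Their summed level went from between 12831 and 13554 to between 1567 and 1738 normalized reads, with Lyz2, Mrc1 and C1qa the most abundant, and Cd163 and Cx3cr1 were at 0 in at least 1 lidocaine library. All 17 were called lower under the median of ratios too. Of 24 partners and targets of Spi1 and Cebp in myeloid cells 12 were listed, 1 higher and 11 lower (median -2.23), and 8 of these were called lower under the median of ratios. Among them Csf1r, the growth factor receptor that macrophages depend on, fell 7.36-fold, Lyz2 (lysozyme) 6.50-fold and Cybb, part of the phagocyte oxidase, 5.24-fold.

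Pou2f2, a POU factor of B cells and macrophages, was at 103, 88.8 and 92.2 normalized reads in control and at 14.0, 17.8 and 18.1 with lidocaine, a 5.70-fold fall (log2 fold change -2.45 ± 0.23, SE over 3 and 3 libraries; limma adjusted p = 4.56e-06) beside the falling immune markers. Tbx21, the T-box factor of type 1 helper T cells and natural killer cells, was at 80.2, 86.4 and 97.2 in control and at 173, 189 and 171 with lidocaine, a 2.02-fold rise (limma adjusted p = 8.44e-05). In the list of 21 myeloid and lymphoid factors 4 were listed, with Pou2f2 lower and the other 3 higher. Of 12 lymphocyte markers 5 were listed, 1 higher (Cd2) and 4 lower, with Cd4 and Cd79b the most abundant of these 4. The summed level of the 5 was 425 to 477 normalized reads in control and 165 to 179.6 with lidocaine. Cd4 held most of the control sum, with means of 301 in control and 35.6 with lidocaine. The fall of the sum was therefore mostly that of Cd4. Cd79b averaged 44.7 in control and 20.5 with lidocaine, and Cd2 44.3 and 102.5. With the median of ratios 1 of the 5 was called higher and 2 lower. Pou2f2 moved with most of these markers and Tbx21 against most of them, and the part of immune cell content was not tested.

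Hox genes give cells their position along the body axis, and each part of the ganglion chain keeps its own Hox code. Hoxd3 was at 168, 179.9 and 184 normalized reads in control and at 46.0, 61.7 and 41.1 with lidocaine, a 3.57-fold fall (log2 fold change -1.84 ± 0.19, SE over 3 and 3 libraries; limma adjusted p = 7.53e-06). Hoxb9, a gene of thoracic levels, rose from 56.4 ± 7.38 normalized reads to 146 ± 23.2 (SD, n = 3 each; limma adjusted p = 6.7e-05). Hoxd3 and Hoxb9 thus moved opposite ways, and an order of the changes along the body axis was not tested. Hoxb13, a gene of the tail region, was at 0 in all 3 control libraries and at 0, 4.68 and 15.0 normalized reads with lidocaine, too few to be tested.

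Several homeobox and forkhead genes with few reads in control rose. Irx2, an Iroquois factor, was at 24.4, 35.5 and 48.1 normalized reads in control and at 121, 145 and 170 with lidocaine, a 4.03-fold rise (log2 fold change 2.02 ± 0.26, SE over 3 and 3 libraries; limma adjusted p = 4.63e-05). Hmx3, a homeobox factor of the inner ear and hypothalamus, was at 28.8, 35.5 and 35.1 in control and at 122, 109 and 95.3 with lidocaine, a 3.29-fold rise (limma adjusted p = 2.63e-05). Both were scarce in control and without overlap. Foxa3, a forkhead factor of liver, rose from 10.3 ± 4.72 normalized reads to 34.8 ± 8.48 (SD, n = 3 each; limma adjusted p = 0.0021).

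Pax4, a paired box factor of pancreatic beta cells, was at 20.9, 17.8 and 24.1 normalized reads in control and at 0, 6.55 and 1.00 with lidocaine. It had the lowest log2 fold change of the members (-3.14 ± 0.72, SE over 3 and 3 libraries; limma adjusted p = 0.00216), a value that shrank to -1.50 with a pseudocount of 8. Pax4 passed the filter only through its control libraries, as its lidocaine mean was 2.52 normalized reads. Pou2f3, the POU factor of tuft cells, was at 3.49, 5.92 and 0 normalized reads in control and at 11.0, 14.0 and 9.03 with lidocaine, and its mean was too low to be tested. At these levels a few reads per library set the value.

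In a list that shares genes with those above, 7 of 26 signal- and stress-inducible factors were listed. Of these 6 were higher (Etv5, Sox9, Klf4, Bhlhe40, Cebpb and Klf15) and Snai1 was lower, with a median of 1.29. Each of the 7 was already counted in a list above, so this count adds no further genes. Among 25 BMP pathway genes 8 were listed and 7 tested, of which 2 rose and 5 fell (median -2.27). The BMP antagonist Sostdc1 fell 45.8-fold, the ligand Bmp2 rose 2.99-fold and the receptor Acvrl1 fell 4.86-fold. Under the median of ratios 2 of the 7 were called higher and 4 lower. Among 15 E proteins and basic helix-loop-helix partners 6 were listed and 5 tested, 1 higher and 4 lower (median -1.49), with Tal1, a blood and endothelial factor, lower by 2.88-fold; under the median of ratios 1 was called higher and 1 lower, and Tal1 was not called. Of 12 satellite glia markers 6 were listed, and Fasn rose while 5 fell; the summed level stayed between 31280 and 33389 normalized reads with lidocaine, against 32359 to 33050 in control.

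The pair of members that are not transcription factors rose too. Tbxas1, which makes thromboxane A2 from prostaglandin H2 and is known from platelets and macrophages, was at 151, 175 and 153 normalized reads in control and at 755, 770.0 and 737 with lidocaine, a 4.72-fold rise (log2 fold change 2.23 ± 0.09, SE over 3 and 3 libraries; limma adjusted p = 9.82e-09) against the fall of the macrophage markers. Foxred2 was at 266, 350.4 and 339.8 in control and at 683, 684 and 683 with lidocaine, a 2.14-fold rise (limma adjusted p = 5.94e-06). Without them 25 of 40 members were higher and 15 lower.

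Compared per transcript length, in the authors' FPKM values, the order of the members differed between the groups. Bhlhe40 had the highest mean in both groups, at 43.0 ± 0.68 FPKM in control and 107 ± 2.50 with lidocaine (SD, n = 3 each). Klf7, at 41.5 ± 2.98 in control, differed from Bhlhe40 by less than its own SD there and exceeded it in control replicate 3, so their order in control was not settled. With lidocaine it had rank 6 at 19.1 ± 1.60, within its SD of Cebpb at 20.5 ± 0.76. Hey1 had rank 3 in both groups, at 14.6 ± 0.58 and 36.0 ± 2.46.

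Etv5 moved from rank 4 (13.6 ± 0.20) to rank 2 (66.5 ± 1.37 FPKM), and in control its SD range met that of Hey1 at no point. Heyl moved from rank 5, at 12 FPKM ± 0.62, to rank 22 of 42, at 1.62 ± 0.12. Sox9 rose from 1.10 ± 0.13 to 4.49 ± 0.29 FPKM and Tfap2c from 0.53 ± 0.07 to 2.77 ± 0.15. The median level of the kept members was 1.38 FPKM in control and 1.70 with lidocaine, whereas that of all genes kept was 1.82 and 0.99.

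**Figure D5:**
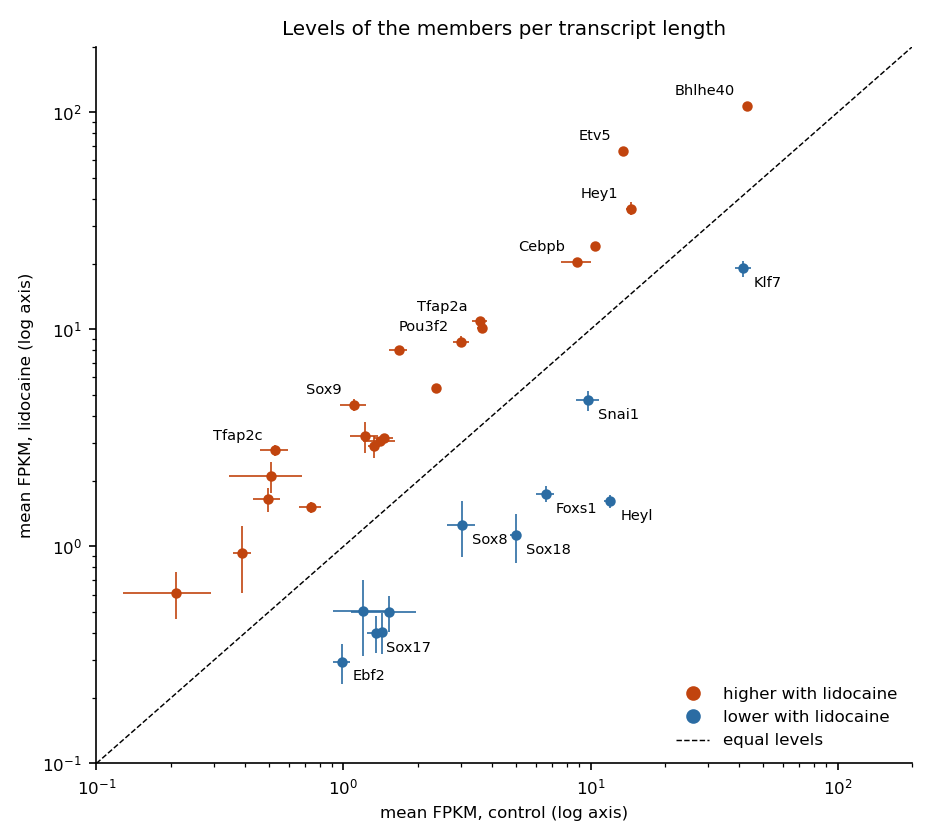
Mean FPKM in control (horizontal log axis) and with lidocaine (vertical log axis) for 32 members with a mean of at least 0.2 FPKM in both groups; bars are SD (n = 3 per group) and the dashed line marks equal levels. Bhlhe40 and Etv5 lie highest, Klf7 is the most abundant gene below the line, and Heyl lies farthest below it among genes over 10 FPKM in control.

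Replicates of the members spread little. The median SD within groups was 0.156 on the log2 scale over the kept members and 0.197 over all genes kept, while the members' mean level was also higher (median 207 against 160 normalized reads). Of the 42 members 25 had a mean of at least 100 normalized reads and 7 of at least 1000. The deposited table annotated 39 of the 42 members with DNA binding.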

How the data were processed

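RNA of 6 libraries, 3 control and 3 lidocaine, was sequenced, and sample titles gave each library its group and number. The submitters' processing notes name Bowtie 0.12.2, DESeq2 and the build rn6 (Rnor_6.0) without their roles; the counting tool, its use of strand and the annotation are not given in the labels or files, so reads of overlapping antisense genes could not be told apart. The authors deposited log2 values of normalized reads plus 1 and FPKM values for the same 2125 genes, with a log2 fold change and a p-value per gene in the authors' deposited table. With the log2 step undone, 100% of values were whole multiples of 1 factor per library (tolerance 0.02 reads; factors 0.872 to 1.18). Libraries within a group differed beyond sampling noise (chi-square per degree of freedom 3.26 to 8.38).

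The log2 values as deposited entered limma 3.58.1 (R 4.3.3; moderated two-sided test, variance trend, no replicate block) over all genes averaging 10 or more normalized reads, and members were read out of that fit. The step was also run on simulated data with 200 changed genes among unchanged ones. Here 99.5% of the genes kept were called, so that run does not bear on these calls. For genes with few reads, the change in log2 values can be larger or smaller than the ratio of mean normalized reads implies. A fold given without log2 is that ratio. Values in every library were given for the 8 largest rises and the largest falls (up to 12) averaging 50 or more normalized reads in the higher group, and for up to 3 members of highest mean in each list; members of few reads were shown likewise. Of marker and pathway lists up to 3 genes of highest mean were named. Vegfa, Fgfr3, Egr2, Mag and markers at 0 are exceptions, picked with their values already seen. Members, lists and motifs were chosen with earlier results of these data known. The authors' FPKM group value of lidocaine did not equal the mean of its libraries and was not used. A member that counts among the 42 is not reported or drawn here by itself.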

Additional observations from a re-analysis of the deposited data

How the results depend on the processing

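The 40 members tested were recomputed under 15 alternatives, covering the pseudocount, the filter, the scaling, FPKM, the variance trend, the adjustment, a replicate block and single libraries removed. Of 585 values of single members 563 kept their direction and side of the threshold, 20 lost the call and 2 reversed. The reversals were Klf7 (0.04) and Snai1 (0.11) under the median of ratios over the listed genes. There 9 members were called lower in place of 15, and the median log2 fold change of the members was 2.32 in place of 1.16; both follow from centring a table of mostly lower genes. With a filter of 100 normalized reads 8 members were called lower, since fewer genes were tested. Adjusted as if over all 47357 genes of the RefSeq table, 22 members were higher and 12 lower. With each library left out, 24 to 25 were higher and 14 to 15 lower. Same-numbered libraries did not deviate together (r from -0.09 to 0.00 over 1068 genes), so the numbers were not taken to pair samples; with a replicate block 25 members were higher and 15 lower, as without it. Members under about 50 normalized reads are limited by depth.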
